A study of Mus musculus with 14 samples.

Results

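Drugs, hormones and reactive by-products of lipid oxidation are made water-soluble in the kidney by conjugating enzymes, and the 72 genes described here encode 3 classes of them together with the carboxylesterases and epoxide hydrolases that work beside them. The members were all protein-coding genes of GENCODE whose mouse symbol names a glutathione S-transferase (Gst or Mgst), a UDP-glucuronosyltransferase (Ugt), a sulfotransferase (Sult), a carboxylesterase (Ces) or an epoxide hydrolase (Ephx), and whose counts summed to more than 10 over the 14 libraries. Of 92 symbols that fit the naming pattern, 72 passed and 20 did not, so the members made up 72 of the 22339 genes with a sum above 10. The glutathione S-transferases (GST) gave 27 of 27 genes, the UDP-glucuronosyltransferases (UGT) 17 of 21, the sulfotransferases (SULT) 10 of 21, the carboxylesterases (CES) 14 of 19 and the epoxide hydrolases (EPHX) 4 of 4.

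Whole left kidneys from females of the outbred CD-1 stock were sequenced at 18 weeks of age. The sources give 1 library for each numbered replicate without naming litters, so p-values measure the spread between these libraries. Term mice without diabetes (T-ND, n = 4) and term mice given streptozotocin (STZ), a toxin of pancreatic beta cells that causes diabetes (T-D, n = 4), were born naturally and stayed with their own mothers. Preterm mice without diabetes (PT-ND, n = 3) and with STZ (PT-D, n = 3) were delivered early by Caesarean section and raised by foster mothers given acepromazine in their drinking water, and some PT-D mice of the study, which are not named, received a second course of STZ that no T-D mouse received. STZ was injected at low dose from 6 weeks of age, littermates without it were the controls, all mice were wild type, and all were injected with cationic ferritin for imaging shortly before collection, with the left renal pedicle clamped before formalin perfusion. Preterm birth therefore stands here for early delivery, surgery, fostering and the foster mothers' sedative together, which cannot be told apart.

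The libraries held 16697246 to 28673176 counts on genes. Kidney markers were abundant, with the 7 proximal tubule genes summing to 101111 to 159903 normalised counts in every library, which are counts scaled by the trimmed mean of M values (TMM) to the mean library. No proximal tubule marker passed the test in any of the 6 comparisons below. Adipocyte markers, in contrast, summed to between 8.21 and 5440 normalised counts, with a highest library of 5227 or more in each group, adrenal markers summed to 37.6 to 92.5, and the leukocyte marker Ptprc was higher in PT-D (248 to 349 normalised counts) than in T-ND (101 to 188) and PT-ND (112 to 221). Ptprc was 1 of 7 leukocyte markers. In PT-D vs T-ND 6 of them were higher and 1 lower, and in PT-D vs PT-ND 5 were higher and 2 lower. In each of these comparisons 1 passed the test. The part of these other cells in the results was not tested. In 5 libraries (T-ND 1 and 2, T-D 1, PT-ND 2 and PT-D 1) the library name ends in the letter a, whose meaning is not given in the sources used here. T-ND 1 and 2 stood apart from T-ND 3 and 4 in several genes, and the results are given below also without the libraries that carry the letter.

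Glutathione S-transferases join the tripeptide glutathione to electrophiles, and the conjugates are then trimmed to mercapturates by the brush-border and cytosolic enzymes of the proximal tubule. UDP-glucuronosyltransferases add glucuronic acid, sulfotransferases add sulfate from the donor PAPS, carboxylesterases cut ester and amide drugs and lipids, and epoxide hydrolases open reactive or signalling epoxides with water. In liver and kidney many of these genes are known to respond to the transcription factors NRF2 (binding antioxidant response elements), the aryl hydrocarbon receptor (binding xenobiotic response elements), and HNF1, which maintains proximal tubule expression.

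The sequences printed are the promoters of 2 genes that were higher after STZ (Ephx1 and Ces2e) and of the most abundant sulfotransferase (Sult1d1). Tandem alpha class genes of chromosome 9 that split alike within T-ND, and whose counts in part cannot be separated, are also given (Gsta1, Gsta13 and Gsta5). Another is Gsta3, an alpha class gene on chromosome 1 that, like Mgst1, had a positive difference in PT-D vs PT-ND. Each promoter is the 250 bases before the start of the canonical GENCODE transcript in GRCm39, on the gene's own strand, 5′ to 3′. Capitals mark any match, on either strand, to the antioxidant response element core TGACNNNGC, the xenobiotic response element TNGCGTG or the HNF1 core GTTAAT.
Ephx1 (chr1:180845135-180845384, minus strand): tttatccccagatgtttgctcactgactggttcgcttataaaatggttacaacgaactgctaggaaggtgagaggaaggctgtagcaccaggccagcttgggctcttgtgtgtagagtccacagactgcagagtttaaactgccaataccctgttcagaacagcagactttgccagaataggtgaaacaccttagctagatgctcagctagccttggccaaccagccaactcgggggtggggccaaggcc
Ces2e (chr8:105652598-105652847, plus strand): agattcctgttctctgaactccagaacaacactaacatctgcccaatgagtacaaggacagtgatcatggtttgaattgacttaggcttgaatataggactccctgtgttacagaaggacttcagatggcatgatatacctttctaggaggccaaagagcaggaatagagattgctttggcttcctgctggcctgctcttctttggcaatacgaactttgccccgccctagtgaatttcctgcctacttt
Gsta1 (chr9:78137677-78137926, plus strand): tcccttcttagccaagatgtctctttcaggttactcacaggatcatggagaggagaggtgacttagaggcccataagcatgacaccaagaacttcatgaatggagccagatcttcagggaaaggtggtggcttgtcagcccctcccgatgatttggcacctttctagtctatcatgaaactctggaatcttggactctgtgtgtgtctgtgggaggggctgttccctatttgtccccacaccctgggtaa
Gsta13 (chr9:78164161-78164410, plus strand): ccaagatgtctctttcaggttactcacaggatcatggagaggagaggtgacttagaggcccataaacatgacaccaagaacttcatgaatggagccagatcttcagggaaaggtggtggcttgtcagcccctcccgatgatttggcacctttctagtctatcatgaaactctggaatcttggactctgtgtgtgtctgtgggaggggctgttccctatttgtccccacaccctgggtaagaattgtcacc
Gsta5 (chr9:78196955-78197204, plus strand): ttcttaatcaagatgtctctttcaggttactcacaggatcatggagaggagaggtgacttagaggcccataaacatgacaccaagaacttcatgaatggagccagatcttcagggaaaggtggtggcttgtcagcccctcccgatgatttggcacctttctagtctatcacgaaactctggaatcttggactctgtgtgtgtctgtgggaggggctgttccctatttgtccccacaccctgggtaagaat
Gsta3 (chr1:21310556-21310805, plus strand): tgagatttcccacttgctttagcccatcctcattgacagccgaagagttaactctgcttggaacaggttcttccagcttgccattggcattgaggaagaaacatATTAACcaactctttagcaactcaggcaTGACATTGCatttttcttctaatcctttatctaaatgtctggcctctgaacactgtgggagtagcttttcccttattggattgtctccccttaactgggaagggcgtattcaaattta
Sult1d1 (chr5:87716934-87717183, minus strand): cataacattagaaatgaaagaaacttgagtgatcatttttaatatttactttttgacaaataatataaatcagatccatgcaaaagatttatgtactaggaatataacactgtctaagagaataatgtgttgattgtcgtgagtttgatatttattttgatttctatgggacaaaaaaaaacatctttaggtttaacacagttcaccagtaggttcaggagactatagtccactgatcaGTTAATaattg

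These windows held no match in Ephx1, Ces2e, Gsta1, Gsta13 or Gsta5, an antioxidant response element core and an HNF1 core in Gsta3, and an HNF1 core in Sult1d1. The window of Mgst1, not printed, held no match. The windows of Gsta1 and Gsta13 were 99.6% identical over 239 aligned bases and those of Gsta13 and Gsta5 99.6% over 242. Over all 72 members, 3 promoters held the antioxidant core (Ephx2, Gsta3 and Gstm5), against 10.5% of 16165 promoters of protein-coding genes with counts, and 2 held the xenobiotic element (Gstm2 and Ugt1a5), against 5.78%. The HNF1 core was found in 12 members, against 5.2% of all promoters, and 10 of the 12 were UGT or SULT genes (Ugt1a1, Ugt1a6b, Ugt1a9, Ugt1a10, Ugt2a3, Ugt3a2, Sult1a1, Sult1c2, Sult1d1 and Sult2a3). A match is only these letters in this window, and a window without a match says nothing of the factor.

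Levels were compared between genes per length, as normalised counts scaled by library size and by the exonic length that overlaps no other gene (RPKM). Ugt1a2, a glucuronosyltransferase of the shared Ugt1a locus, was the highest member at 542 ± 116 RPKM (SD over 14 libraries), followed by Sult1d1, a phenol sulfotransferase, at 337 ± 60.9, Ugt3a1, at 232 ± 45.8, and Gsta2, at 224 ± 76.2. The ranges over libraries overlapped between neighbours in that order. Gstm1, a mu class transferase, was next at 173 ± 38.99 RPKM. The other leading members of their classes were lower: Sult1c2 reached 62.45 ± 21.0, the carboxylesterases Ces1d and Ces2c 61.9 ± 17.4 and 38.6 ± 10.3, and the hydrolases Ephx2 (soluble) and Ephx1 (microsomal) 36.1 ± 4.15 and 11.5 ± 7.20. In counts the GSTs made up 45.3% of all reads on members, the UGTs 25.5%, the SULTs 16.1%, the CES genes 8.45% and the EPHX genes 4.71%. Reads on exonic bases shared with another gene were not counted. For Ugt1a2 only 900 of 3216 exonic bases are unshared, so the UGT share is understated and does not rank the classes.

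**Figure D1:**
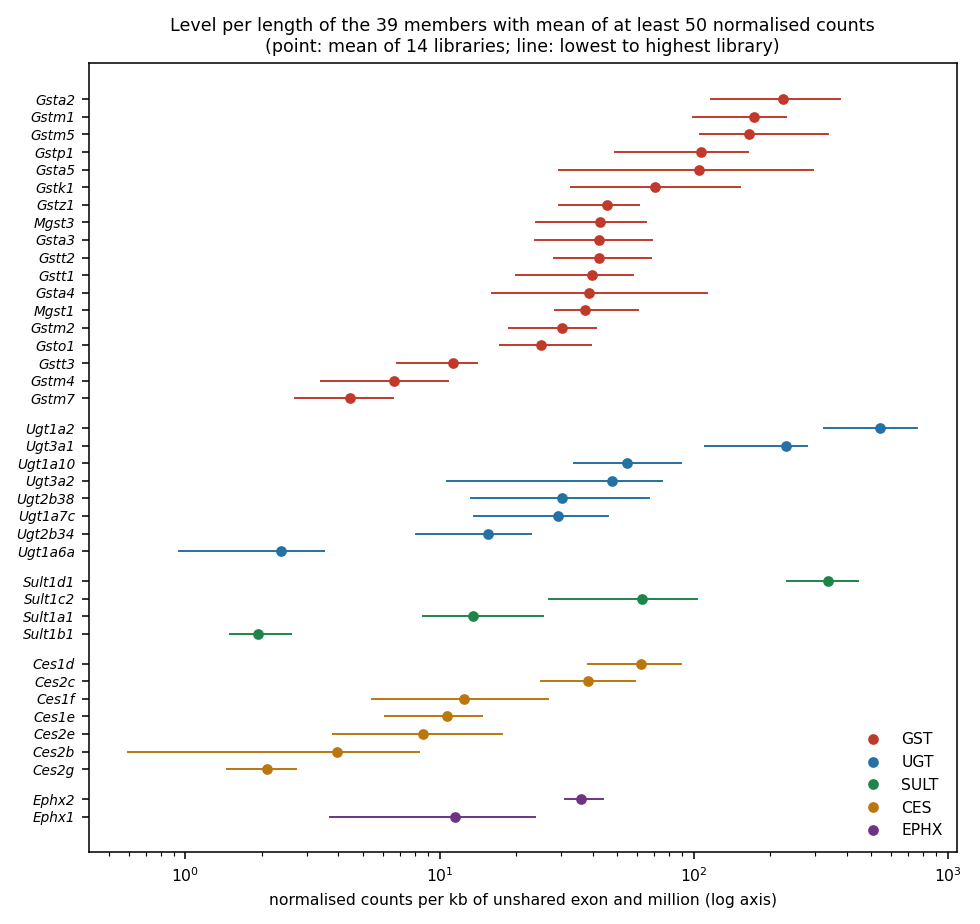
Level of the 39 members with a mean of at least 50 normalised counts, in RPKM over the unshared exonic length on a log axis, grouped and coloured by class. Points are means of 14 libraries and lines run from the lowest to the highest library; Ugt1a2 (542) and Sult1d1 (337) are highest, and Ces2b has the widest line (0.595 to 8.29).

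Of the 72 members, 39 averaged at least 50 normalised counts (18 GST, 8 UGT, 4 SULT, 7 CES and 2 EPHX) and 16 averaged under 10. The 9 Ugt1a genes share their last exons, and 100-base windows shared with other genes of these families made up 52.3% to 77.0% of their windows. Reads that fall on more than 1 gene were set apart as ambiguous in the files, so the Ugt1a counts come from the exons that each gene owns. Gsta1 and Gsta13 shared 80.7% and 85.35% of such windows, mostly with each other and with Gsta2 and Gsta5, and their counts are uncertain, while Gsta2 shared 15.3%, Gsta5 22.4% and Gstp1 23.8% (the last with Gstp2 and a pseudogene). Ces2c shared 44.05%, with the pseudogene Ces2d-ps and predicted genes, so its level is uncertain too.

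The test in each comparison was edgeR's quasi-likelihood test on all genes with a sum above 10, and a member was called at a Benjamini-Hochberg adjusted p under 0.05 over all genes tested. STZ in term mice (T-D vs T-ND) called 2 members, Ephx1 and Ces2e, both higher, against a background of 0.0673% of 22275 genes called (0.0539% higher). Without overlap between T-D and T-ND were 5 members higher and 1 lower, against 2.9% and 3.76% of all genes. STZ in preterm mice (PT-D vs PT-ND) called 16 members, 5 higher and 11 lower, against 12.9% of 22303 genes (7.14% higher and 5.78% lower). The members thus had a share of higher calls (5 of 72) close to the background and a larger share of lower calls (11 of 72), and all 11 lower members were GSTs. Preterm birth with STZ against term without (PT-D vs T-ND) called 4 members, Ephx1, Ces2e and Ugt1a6b higher and Gstm2 lower, against 2.76% of 22310 genes (1.61% higher and 1.15% lower). Passing also the study's threshold of a log2 fold change over 1 in size were 3 of these, against 1.45%.

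Neither comparison of birth groups called a member with edgeR in this fit. In PT-D vs T-D the count was 0 (5 with no filter on low counts and 5 with all 14 libraries in 1 fit), against 0.193% of 22294 genes, with 13 members at an unadjusted p under 0.05 (22.3% of all genes), of which 1 was higher and 12 lower (11.4% and 10.9%). DESeq2 called 10 of the 51 members to which it gave an adjusted p, against 15.8% of 14488 genes. In PT-ND vs T-ND it was 0, against 0.0809% of 22254 genes, with 7 at an unadjusted p under 0.05 (10.7% of all genes), and DESeq2 called 1 of 54, against 2.0% of 15315 genes. Without overlap were 8 members higher and 2 lower in PT-ND, against 5.48% and 5.54% of all genes. The interaction, which asks whether the STZ difference was the same in preterm and term mice, called 8 members, all GSTs and all negative, against 6.23% of 22339 genes (3.41% negative).

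Ephx1, the microsomal epoxide hydrolase of xenobiotic metabolism, was higher after STZ in both birth groups. It lies on chromosome 1 (chr1:180803775-180848537, minus strand). Its normalised counts were 930.4, 839, 689 and 951 in T-ND and 2064, 3762, 2169.6 and 3766 in T-D. In PT-ND they were 744, 1159 and 587 and in PT-D 2168, 2847 and 2842. Every STZ library lay above every library without STZ, also across birth groups. The log2 fold change was 1.77 ± 0.22 (SE, 3.40-fold, adjusted p = 0.0132) in T-D vs T-ND, 1.66 ± 0.24 (3.16-fold, adjusted p = 0.0041) in PT-D vs PT-ND and 1.61 ± 0.16 (adjusted p = 0.00387) in PT-D vs T-ND. The interaction was -0.13 ± 0.35 (adjusted p = 0.869).

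The Ephx1 call held in each of the 7 and 6 fits that left out 1 library of PT-D vs T-ND and PT-D vs PT-ND. In T-D vs T-ND it was lost without T-ND 1, T-ND 2 or T-D 2, with log2 fold changes between 1.63 and 1.90 over the 8 fits. The other abundant hydrolase, Ephx2, which hydrolyses epoxides of fatty acids, ran from 3695 to 5221 normalised counts over all libraries, with log2 fold changes between 0.01 and 0.21 in the 5 pairwise comparisons and no call. Its PT-D libraries (4188 to 5023) lay above T-ND (3752 to 4027), and the other pairs of groups overlapped.

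Ces2e, a carboxylesterase of the endoplasmic reticulum, was the other member higher in both STZ comparisons. Its normalised counts were 236, 255, 289 and 212 in T-ND, 491, 979.8, 609 and 806 in T-D, 272, 288 and 315 in PT-ND, and 341, 822 and 746 in PT-D. No STZ library fell to the level of a library without STZ, but PT-D 1 (341) lay near the PT-ND libraries. The log2 fold change was 1.52 ± 0.21 in T-D vs T-ND (adjusted p = 0.0234), 1.13 ± 0.28 in PT-D vs PT-ND (adjusted p = 0.0253) and 1.35 ± 0.26 in PT-D vs T-ND (adjusted p = 0.0342). Leaving out 1 library at a time kept the call in 3 of 8, 1 of 6 and 2 of 7 fits, with log2 fold changes between 0.90 and 1.66. The call was lost without any of T-ND 1, 2 and 4, T-D 2 and 4 or PT-D 2 and 3, and in PT-D vs PT-ND also without any PT-ND library.

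**Figure D2:**
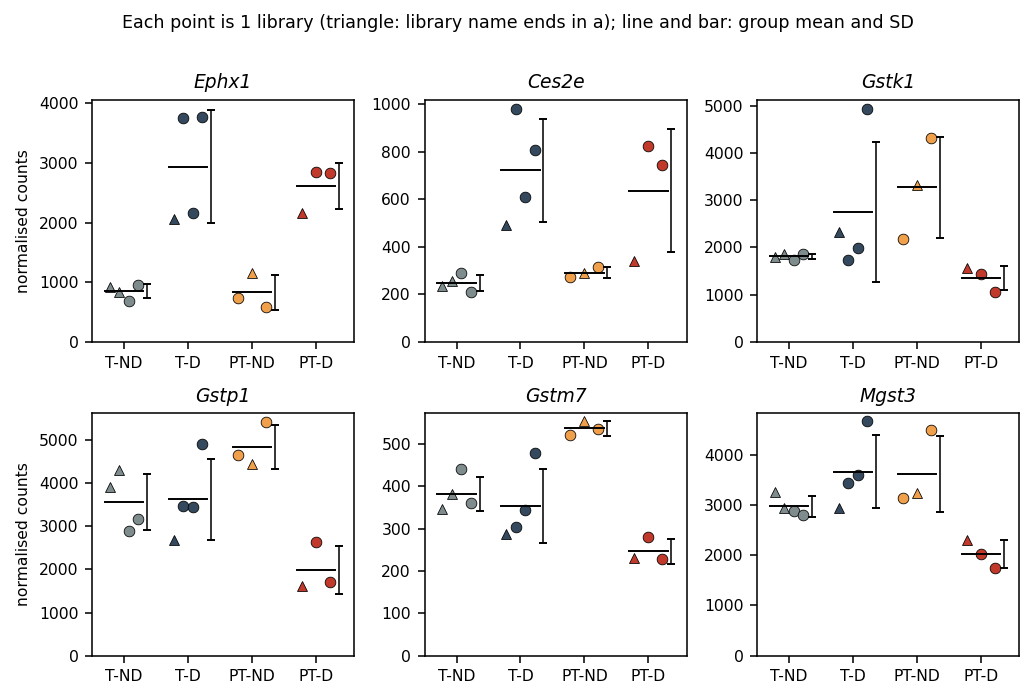
Normalised counts (linear axes from 0) of Ephx1, Ces2e, Gstk1, Gstp1, Gstm7 and Mgst3 in each of the 14 libraries by group, with the group mean (line) and SD (bar); triangles are libraries whose name ends in a. Ephx1 and Ces2e are higher in both STZ groups, and the 4 transferases are lowest in PT-D, where Gstm7 runs from 228 to 279.9 against 520.5 to 555 in PT-ND.

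Among the other members called higher in PT-D vs PT-ND, Ces1d, a carboxylesterase and lipase of lipid droplets, had 4884, 5549.8 and 4156 normalised counts in PT-ND and 7367, 7678 and 6657 in PT-D. The groups did not overlap (log2 fold change 0.57 ± 0.16, adjusted p = 0.0384), but the call was lost when any of the 6 libraries was left out (0.47 to 0.67). In T-ND the same gene split, with 4633 and 4003 in the libraries whose name ends in a and 9225 and 9063 in the others, so that PT-D lay inside the T-ND range. Ces1g, a carboxylesterase that hydrolyses triglyceride and is best known in liver, had 0, 2.26 and 4.62 normalised counts in PT-ND and 19.2, 46.6 and 36.8 in PT-D (log2 fold change 3.87 ± 0.80, adjusted p = 0.0138). These are few reads, with 1 PT-ND library at 0, T-ND ran from 7.13 to 38.7, and the call was lost without PT-ND 2 (3.26 to 4.83 over the 6 fits). Ugt1a10, a member chosen for description after its values were seen, had 713, 646 and 553 against 722, 1194 and 1163, so that PT-D 1 lay just above the highest PT-ND library (0.69 ± 0.20, adjusted p = 0.0479, lost without PT-ND 2 or 3 or PT-D 2 or 3, with 0.56 to 0.89 over the 6 fits).

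Ugt1a6b, likewise chosen after its values were seen, was the UGT called in PT-D vs T-ND. It had 19.0, 24.7, 29.3 and 25.8 normalised counts in T-ND and 52.9, 79.7 and 61.6 in PT-D, with T-D (31.7 to 51.2) and PT-ND (36.5 to 43.0) between them. The log2 fold change was 1.38 ± 0.30 (adjusted p = 0.0445), and the call was kept only without T-ND 3, so that leaving out any of the other 6 libraries ended it (1.20 to 1.496 over the 7 fits).

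The lower calls were all glutathione S-transferases, and 11 of them came from the comparison of PT-D with PT-ND. Of the 18 GSTs of at least 50 normalised counts, 16 had a negative log2 fold change in PT-D vs PT-ND (47.5% of all genes), 11 were called lower, and 14 had every PT-D library below every PT-ND library. Of 12169 genes with a mean of at least 50 normalised counts, 5982 were negative, 1206 called lower and 2825 lower without overlap. In all, 17 of the 72 members had such a non-overlap in the lower direction, against 15.8% of all genes. The median log2 fold change of the 18 was -0.70, beside 0.05 over all genes tested, and stayed between -0.82 and -0.62 under the 15 other settings tried. In whole-kidney RNA fewer cells of a type and less RNA per cell cannot be told apart. The 7 proximal tubule markers, of which none was called, summed to 144322 to 159903 normalised counts in PT-ND and 123470 to 153678 in PT-D. Of these, 3 were higher and 4 lower, with log2 fold changes from -1.43 to 0.41. In stained sections the study reported a smaller proximal tubule fraction in PT-D than in T-D and in T-ND. Of 10 markers of other kidney cells, PT-D vs PT-ND called 2 higher, the podocyte gene Nphs1 (370 to 665 in PT-ND and 862 to 1207 in PT-D) and the endothelial gene Kdr (440 to 985 and 1205 to 1720). In PT-D vs T-ND, 2 of the 10 were called higher, Nphs1 among them, and 1 lower, Umod of the thick ascending limb. The interaction called 1 of the 10, positive. These markers summed to 57957 to 82619 in PT-ND and 39872 to 84878 in PT-D, and their part in the GST differences was not tested.

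Gstm7, a mu class transferase, had 520.5, 555 and 535 normalised counts in PT-ND and 231, 279.9 and 228 in PT-D. The PT-D libraries were the 3 lowest of all 14, and the PT-ND libraries the 3 highest. The log2 fold change was -1.12 ± 0.16 (2.18-fold lower, adjusted p = 0.00403). T-ND, at 347 to 440.0, and T-D, at 287 to 479, lay between them.

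Gstp1, the pi class transferase, had 4651, 4454 and 5424 normalised counts in PT-ND and 1626, 2641 and 1703 in PT-D. It was 2.43-fold lower in PT-D (log2 fold change -1.28 ± 0.20, adjusted p = 0.00547), and all PT-D libraries also lay below all T-ND (2891 to 4303) and T-D (2674 to 4909) libraries. Gstk1, the kappa class transferase of mitochondria and peroxisomes, had 2179.9, 3323 and 4312 in PT-ND and 1556, 1428 and 1068 in PT-D (-1.28 ± 0.24, adjusted p = 0.00976). Its T-ND libraries were tightly grouped at 1739 to 1854, while T-D 4 stood apart at 4927 with the other T-D libraries at 1738 to 2327.

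Gstm4, of the mu class, had 282, 399 and 469.6 normalised counts in PT-ND and 149.6, 197 and 176 in PT-D (-1.14 ± 0.22, adjusted p = 0.0112). The alpha class genes Gsta5 and Gsta2 fell by 0.91 ± 0.17 (adjusted p = 0.00893) and 0.88 ± 0.17 (adjusted p = 0.0111) on the log2 scale. Gsta2 had 11036, 11948 and 14021 in PT-ND and 6727, 7723 and 5691 in PT-D. Gstm7, Gstp1, Gstk1, Gstm4, Gsta5 and Gsta2 were each called in all 6 fits that left out 1 library.

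The remaining lower calls were lost when certain single libraries were left out. Mgst3, a microsomal transferase that also acts in leukotriene synthesis, had 3140.5, 3245 and 4507 normalised counts in PT-ND and 2309, 2029.8 and 1742 in PT-D (-0.84 ± 0.18, adjusted p = 0.0164), lost without PT-ND 3 or PT-D 3 (-0.95 to -0.65 over the 6 fits). Gstz1, the zeta class enzyme of tyrosine breakdown (maleylacetoacetate isomerase), had 7470.0, 8245 and 9544 against 5335, 5718 and 4641 (-0.69 ± 0.16, adjusted p = 0.0204). Gsta4, which conjugates the lipid peroxidation product 4-hydroxynonenal, had 1716, 2660.1 and 2452 against 1405, 1276 and 892 (-0.93 ± 0.21, adjusted p = 0.0189). Gstm2 had 1079.5, 1589 and 1274 against 724, 858 and 810.1 (-0.72 ± 0.17, adjusted p = 0.0212). These 3 lost the call without PT-ND 2, PT-ND 3 or PT-D 3, with log2 fold changes from -0.78 to -0.58, -1.11 to -0.76 and -0.86 to -0.57. Gstt2, of the theta class and chosen after its values were seen, fell by 0.56 ± 0.16 on the log2 scale (adjusted p = 0.044) and lost the call without PT-ND 2 or 3 or PT-D 2 or 3 (-0.63 to -0.45).

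Gstm2 was also the member called lower in PT-D vs T-ND, with 1492, 1257, 1080.0 and 1409 normalised counts in T-ND (log2 fold change -0.72 ± 0.14, adjusted p = 0.0351). No libraries overlapped between the groups, but the call was kept only without T-ND 3 (-0.81 to -0.66 over the 7 fits). Its T-D libraries had 1294, 1382, 805 and 1353, of which T-D 3 alone lay in the range of PT-D.

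Not all GSTs were lower. Gsta3, on chromosome 1, had 3029.9, 3828 and 4194 normalised counts in PT-ND and 5400.2, 4847 and 4199 in PT-D (0.39 ± 0.17, adjusted p = 0.159), and the microsomal Mgst1 had 1251, 1174 and 1348 against 1487, 1374 and 1449.8 (0.19 ± 0.13, adjusted p = 0.383). Both had positive differences that did not pass the test. Gstt1 overlapped between all groups (1154 to 3345) with a difference of -0.04 ± 0.22. Gstm1, the most abundant mu class transferase, had 8758, 11145 and 10823 in PT-ND and 5052, 8056 and 6905 in PT-D, a difference of -0.62 ± 0.19 that did not pass (adjusted p = 0.059).

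**Figure D3:**
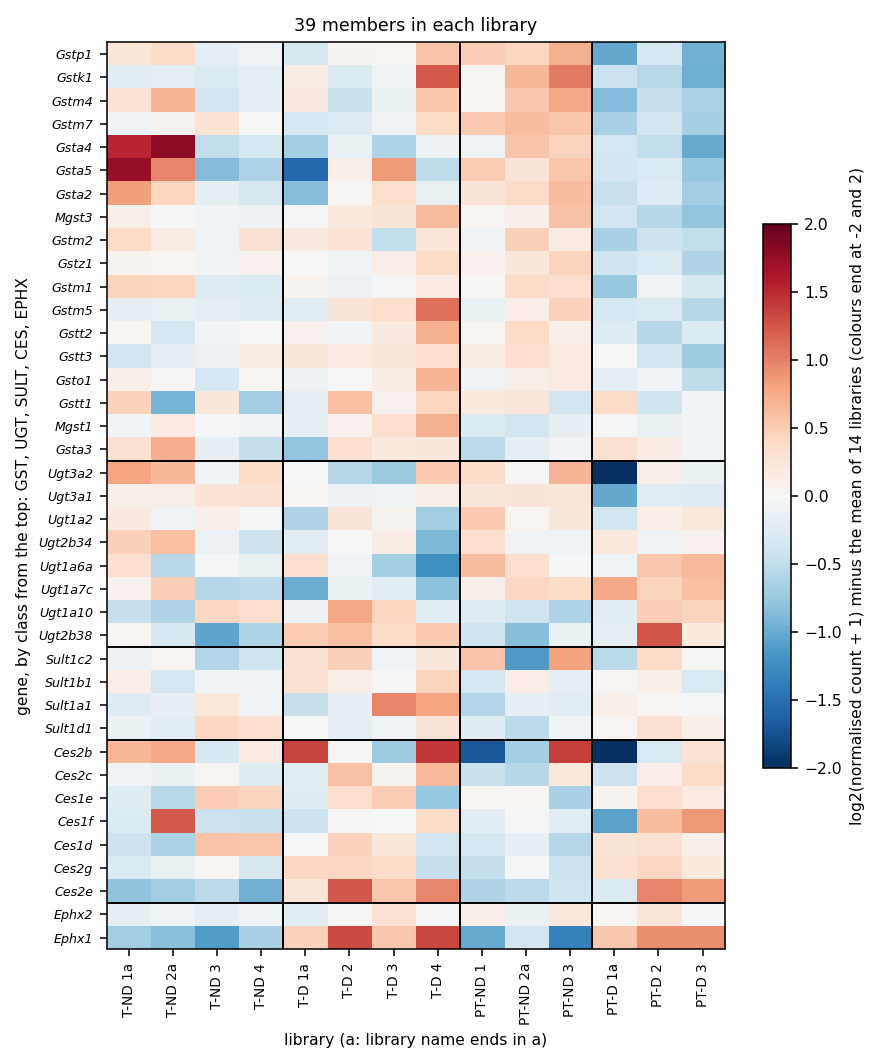
Deviation of each of the 39 more abundant members from its own mean over 14 libraries, on the log2(normalised count + 1) scale, with libraries in columns by group and genes in rows by class and then by their PT-D vs PT-ND difference. The upper GST rows are blue in the 3 PT-D columns and mostly red in PT-ND; Gsta4 and Gsta5 are deep red in T-ND 1 and 2, and Ephx1 is red in all 7 STZ columns and Ces2e in 6 of them.

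Against the other groups most GSTs also had negative differences in PT-D, of which 1 passed the test. The median log2 fold change of the 18 more abundant GSTs was -0.48 in PT-D vs T-ND (17 of 18 negative, 1 called, 8 non-overlapping) and -0.53 in PT-D vs T-D (17 of 18 negative, 0 called, 9 non-overlapping), with all genes at 0.03 and 0.06 and 48.1% and 46.3% of them negative. Over 16 other settings each, these GST medians ran from -0.55 to -0.30 and from -0.61 to -0.41. The lower non-overlap background was 11.2% and 10.6% of all genes. Among genes with a mean of at least 50 normalised counts it was larger, at 2077 of 12168 and 2119 of 12169. These comparisons share the PT-D libraries with PT-D vs PT-ND and are given side by side only. The smallest adjusted p of a GST in PT-D vs T-D was 0.0716, for Mgst3 (-0.86 ± 0.20). In mice without STZ, PT-ND had a median of 0.20 above T-ND over the 18 GSTs (0.12 to 0.40 over 16 other settings). Of these GSTs 14 were positive (50.1% of all genes were negative) and 7 non-overlapping higher. The background of the last was 5.48% of all genes, and 843 of 12169 genes of at least 50 normalised counts. None was called with edgeR, and the smallest adjusted p was that of Gstk1 (0.85 ± 0.19, adjusted p = 0.193).

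Whether the STZ difference of the GSTs was the same in both birth groups was tested directly by the interaction. The 18 GSTs had a median log2 fold change of 0.03 in T-D vs T-ND (10 positive, 8 negative, with 51.6% of all genes negative). That median was -0.08 without T-D 4 and 0.36 on the libraries whose name does not end in a, the lowest and highest of 17 other settings. The median interaction was -0.69 (-0.94 to -0.61 over 22 settings), beside 0.07 over all genes. The calls were Gstk1 (-1.88 ± 0.43, adjusted p = 0.0281), Gstp1 (-1.31 ± 0.31, adjusted p = 0.0301), Mgst3 (-1.14 ± 0.25, adjusted p = 0.0252), Gstm7 (-1.01 ± 0.25, adjusted p = 0.0332), Gstt3 (-0.91 ± 0.23, adjusted p = 0.0355) and Gstz1 (-0.77 ± 0.21, adjusted p = 0.0415). Gstm5 (-1.21 ± 0.33, adjusted p = 0.0431) and Gstt2 (-0.90 ± 0.25, adjusted p = 0.0478) were also called and were named after their values were seen.

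The interaction of Gstt3, a theta class transferase, was seen without a call in either STZ comparison. It had 579, 673, 690.3 and 828 normalised counts in T-ND and 875, 841, 878 and 947 in T-D, where no library overlapped. In PT-ND it had 828, 951 and 843 and in PT-D 745, 584 and 457, again without overlap and in the other direction. For Gstp1 the term difference was 0.00 ± 0.20 and the preterm difference -1.28 ± 0.20.

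T-D 4 was the highest library of its group for all 8 interaction genes, with Gstk1 at 4927, Gstm5 at 7488, Mgst3 at 4686 and Gstt2 at 6716. Without T-D 4 the interaction still called 7 members. The count depended on other libraries: without PT-ND 3 or PT-D 3 it was 0, without PT-ND 2 or PT-D 2 it was 1, without T-ND 1, T-ND 4, T-D 3 or PT-D 1 it was 3, and without T-ND 2 or T-ND 3 it was 4. For PT-D vs PT-ND the 16 calls fell to 8 without PT-ND 2, PT-ND 3 or PT-D 3. For PT-D vs T-ND the 4 calls became 11 without T-ND 3, 2 without PT-D 1 and 1 without any of the other 5 libraries, and for T-D vs T-ND the 2 became 0 without T-ND 1, T-ND 2 or T-D 2 and 1 without T-ND 4 or T-D 4.

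**Figure D4:**
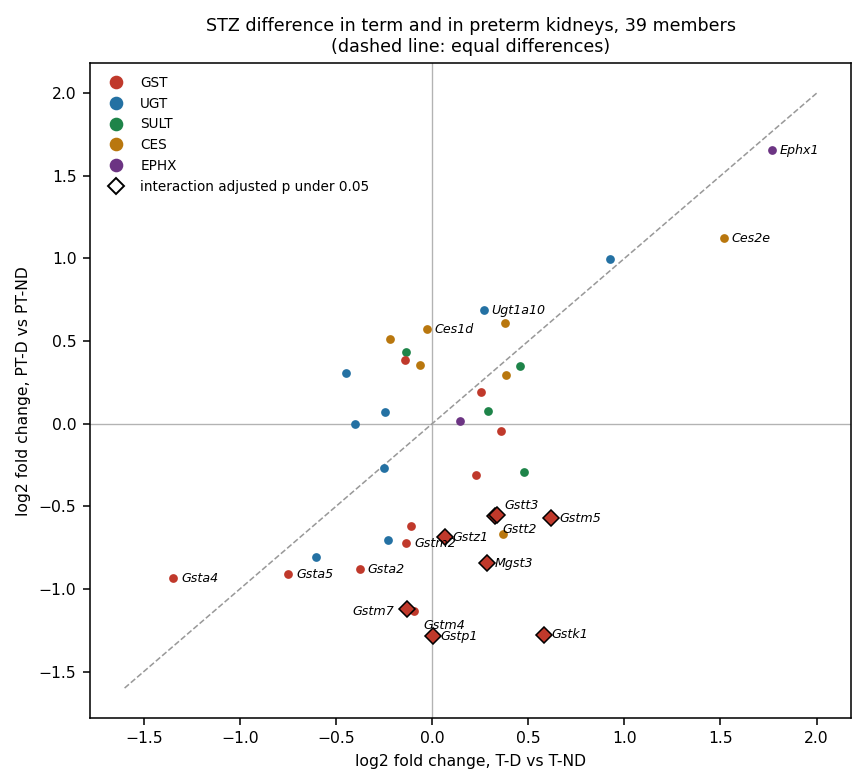
Log2 fold change after STZ in term mice (x axis, T-D vs T-ND) and in preterm mice (y axis, PT-D vs PT-ND) for the 39 more abundant members, coloured by class, with a dashed line of equal differences and diamonds where the interaction was called. The 8 diamonds are GSTs below the line, while Ephx1 (1.77 and 1.66) and Ces2e (1.52 and 1.13) lie at the upper right.

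Within T-ND the libraries split in the alpha class genes of chromosome 9. Gsta4 (chr9:78090056-78117763), Gsta1, Gsta13, Gsta5 and Gsta2 (chr9:78238292-78263077) lie in tandem there. In T-ND 1 and 2, both with the letter, Gsta4 had 5161 and 6240.0 normalised counts, and in T-ND 3 and 4 it had 1276 and 1406. Gsta5 had 8797 and 5158 against 1449 and 1707, and Gsta2 had 16395 and 12323 against 8117 and 7398. Gsta1 had 111 and 122 against 3.14 and 3.22, and Gsta13 had 42.8 and 56.6 against 1.05 and 4.30, with the uncertainty between these near-identical copies given above.

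Both T-ND 1 and T-ND 2 were more than 2 times as high as both T-ND 3 and T-ND 4 for 2 of the 39 more abundant members, Gsta4 and Gsta5, and for 0.641% of 12169 genes of like abundance. T-D 1, PT-ND 2 and PT-D 1, which carry the same letter, had Gsta4 at 1129, 2660.1 and 1405, below both of these. Gsta4 and Gsta5 gave adjusted p of 0.122 and 0.229 in PT-D vs T-ND with edgeR in spite of log2 fold changes of -1.57 and -1.17. On the libraries without the letter, 2 a group, the log2 ratios of group means were -0.31 and 0.23, so that of Gsta5 changed sign. Among members of at least 50 normalised counts, Ces2b had the largest ratio of highest to lowest library in a group (8.48 after 0.5 was added to each value, PT-ND at 65.7, 135 and 561), followed by Gsta5 (6.07) and Gsta4 (4.89), both in T-ND.

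The same T-ND libraries differed in genes outside the family that are known NRF2 targets. Hmox1, the stress-induced heme oxygenase, had 79419.7 and 72243 normalised counts in T-ND 1 and 2 and 1539 and 2674 in T-ND 3 and 4. It was at 2232 to 6651 in T-D, 27214 to 69172 in PT-ND and 59759 to 76462 in PT-D, and it was called higher in PT-D vs T-D (log2 fold change 4.00 ± 0.32, adjusted p = 0.000231). Nqo1 had 1793 and 2013 against 753 and 607 in T-ND, Txnrd1 12569.8 and 21560.4 against 3797 and 3684, and Gclc 10571 and 18314 against 4925 and 3299. Hmox1 in T-ND 1 and 2 was thus at the level of PT-D, where Gsta4 was at 892 to 1405. Its part in the GST results was not tested.

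**Figure D5:**
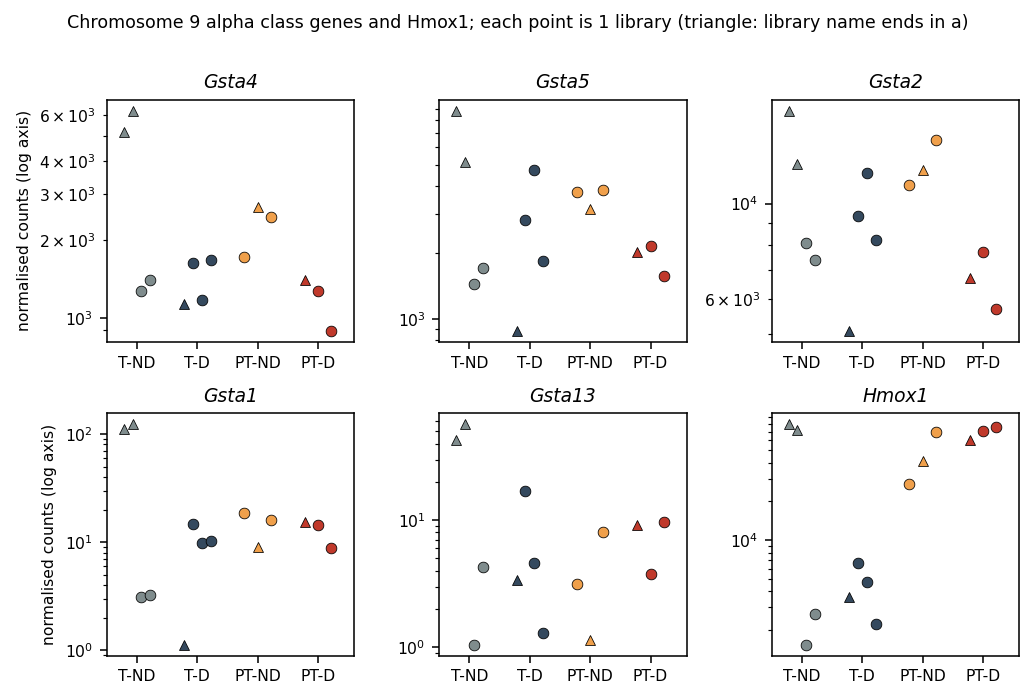
Normalised counts on log axes of the alpha class genes Gsta4, Gsta5, Gsta2, Gsta1 and Gsta13 of chromosome 9 and of Hmox1, each point 1 library by group, triangles marking library names that end in a. Within T-ND the 2 triangles lie above the 2 circles in all 6 panels, and the PT-D points lie near the 2 triangles of T-ND for Hmox1 but not for the Gsta genes.

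Results were refitted on the 9 libraries whose name does not end in a. PT-D vs PT-ND, with 2 libraries a group, called 10 of 71 members, against 4.31% of 22177 genes, with 5 higher and 5 lower (2.65% and 1.66% of all genes). Gstm7 (-1.06), Gstp1 (-1.21), Gstk1 (-1.38), Gsta5 (-1.04) and Mgst3 (-1.02) were lower, and Ephx1 (2.10), Ces2e (1.42), Ces1g (4.16) and Ugt1a10 (0.90) were among the higher calls. PT-D vs T-ND called 4, all higher, against 0.316% of all genes, with Ephx1 at 1.78 and Ces2e at 1.63. T-D vs T-ND and the interaction called 0 with edgeR, against 0.00454% and 0.0537% of all genes, with log2 fold changes of 1.98 for Ephx1 in T-D vs T-ND and -2.06 for Gstk1 in the interaction.

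The UGTs had 1 call each in PT-D vs T-ND and PT-D vs PT-ND, against 2.76% and 12.9% of all genes. The SULTs had 0 calls with edgeR in the 6 comparisons. In PT-D vs PT-ND 3 of 10 SULTs were higher at an unadjusted p under 0.05, against 29.1% of all genes (15.6% higher). Among the 17 UGTs the median log2 fold change was 0.07 in PT-D vs PT-ND and -0.23 in T-D vs T-ND, and among the 10 SULTs it was 0.22 and 0.37. Ugt1a2 had 9212 to 10909.9 normalised counts in T-ND, 5948 to 11559.6 in T-D, 9974 to 13794 in PT-ND and 7518 to 11117 in PT-D, which overlapped. Ugt3a1, which links N-acetylglucosamine to its substrates, had 18087, 18141, 20099 and 20578 in T-ND and 8175, 14322 and 13924 in PT-D. All PT-D libraries were below all others, with differences that did not pass the test against PT-ND (-0.70 ± 0.21, adjusted p = 0.051) or T-ND (-0.67 ± 0.19, adjusted p = 0.0752).

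Sult1d1 had 14284, 11768 and 15784 normalised counts in PT-ND and 17586, 20836 and 18104 in PT-D without overlap (0.43 ± 0.17, adjusted p = 0.114), but T-ND spanned 14549 to 22553. Sult1c2, a sulfotransferase of kidney and stomach, spread widely in PT-ND (4270.1, 1316 and 5024) and passed the test in no comparison. Ugt2b38, chosen after its values were seen, had 511 to 1088 in T-ND and 1385 to 1612 in T-D without overlap (0.92 ± 0.20, adjusted p = 0.132) and 587 to 966 in PT-ND against 938, 2545 and 1217 in PT-D (1.00 ± 0.33, adjusted p = 0.0684). Neither passed the test, and 24.2% of its windows are shared with Ugt2b5 and Ugt2b37. The abundant carboxylesterase Ces2c ran from 1205 to 2828 with overlapping groups. The median of the 14 CES genes was 0.59 in PT-D vs PT-ND, beside 0.05 over all genes. Of the 14, 11 were positive and 3 called higher, against 47.5% of all genes negative and 7.14% called higher.

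The enzymes that act before and after conjugation were taken as lists chosen with earlier results of these data known. In the mercapturate pathway, which processes glutathione conjugates, PT-D vs PT-ND called 2 of 8 genes lower and 1 higher, against 5.78% and 7.14% of all genes. Acy1, aminoacylase 1, had 10206, 13184 and 13411 normalised counts in PT-ND and 2908, 3865 and 4364 in PT-D (-1.72 ± 0.19, adjusted p = 0.00176). It was also called lower in PT-D vs T-ND (-1.49 ± 0.23, adjusted p = 0.021). There the list had 1 lower and 1 higher call, against 1.15% and 1.61% of all genes. Acy3, which deacetylates mercapturates, had 23959.9, 29150.5 and 32915 against 7554, 16884 and 15994 (-1.09 ± 0.28, adjusted p = 0.0278). Ggt5, a gamma-glutamyltransferase, was higher, at 139.8, 114 and 174 against 262, 249 and 214 (0.76 ± 0.22, adjusted p = 0.049), and it was the higher call in PT-D vs T-ND (0.84 ± 0.19, adjusted p = 0.0484). The interaction called Acy1 (-1.32), Acy3 (-1.38) and the aspartoacylase Aspa (-0.79), 3 of 8, all negative, against 3.41% of all genes called negative.

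Of the 9 genes that supply UDP-glucuronic acid and PAPS, PT-D vs PT-ND called 3 lower and 0 higher, against 5.78% and 7.14% of all genes. Slc35b2, the Golgi PAPS transporter, had 956, 1352 and 1419 normalised counts in PT-ND and 604, 664 and 663 in PT-D (-0.95 ± 0.17, adjusted p = 0.00873), Slc35d2, a nucleotide sugar transporter, fell by 0.79 ± 0.18 (adjusted p = 0.0196) and Papss1, a PAPS synthase, by 0.53 ± 0.15 (adjusted p = 0.04) on the log2 scale. Of the 7 genes of glutathione synthesis and recycling, none was called in any of the 6 comparisons with edgeR. At an unadjusted p under 0.05 there were 4 lower in T-D vs T-ND (6.2% of all genes), 3 higher and 1 lower in PT-D vs T-D (11.4% and 10.9%) and 2 higher and 1 lower in PT-D vs PT-ND (15.6% and 13.5%). Within T-ND, Gclc split as given above, and Gsr, the glutathione reductase, was at 6474 and 8328 normalised counts in T-ND 1 and 2 and 2766 and 2808 in T-ND 3 and 4.

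Of 12 other conjugating enzymes, PT-D vs PT-ND called 1 higher, the acyl-CoA synthetase Acsm3 (1.31 ± 0.38), and 2 lower, the histamine methyltransferase Hnmt (-0.68 ± 0.20) and the arylamine acetyltransferase Nat1 (-4.13 ± 1.22, on few reads, at 0, 1.505 and 0 normalised counts in PT-D). Of 8 efflux transporters 1 was higher, Abcc4 (0.79 ± 0.17, adjusted p = 0.0163), at 2020.2, 1982 and 2539 in PT-D against 1499, 1205 and 1088 in PT-ND. In this comparison 7.14% of all genes were called higher and 5.78% lower. None of the 3 deconjugating enzymes with counts and none of the 13 regulators was called in a pairwise comparison with edgeR (1 and 4 of them at an unadjusted p under 0.05 in PT-D vs PT-ND, against 29.1% of all genes). The interaction called the regulators Keap1 (0.81 ± 0.22) and Ahr (1.15 ± 0.33), both positive, and 6.23% of all genes. Of 10 NRF2 targets outside the family, PT-D vs T-D called Hmox1 and Osgin1 (1.22 ± 0.19, adjusted p = 0.0263) higher, against 0.193% of all genes called. None was called in the other comparisons.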

How the data were processed

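Poly-A RNA of 14 whole kidneys was sequenced by the authors without strand information, aligned with STAR to GRCm39 and counted per gene with GENCODE annotation. The deposited files hold raw read counts per gene, of which the unstranded column was used. Here, genes with a sum of more than 10 counts over the 14 libraries were kept, as in the study's methods. Each pairwise comparison was fitted on its own groups and the interaction on all libraries, with edgeR 4.0.16 (quasi-likelihood test, TMM scaling, R 4.3.3) and Benjamini-Hochberg adjustment over all genes tested. Libraries held 16697246 to 28673176 counts on genes. Of 56980 gene identifiers, 56236 matched the reference annotation without the version and 31972 with it. Alternatives were DESeq2 1.42.0, RLE scaling, other filters, the library-name suffix or replicate number as a term, 1 joint fit, and each library left out. The genes named were those called with the smallest adjusted p, the most abundant 2 a class and the 3 of widest spread within a group. Others are marked, except Gsta1, Gsta3, Gsta13, Gstt1 and Mgst1, which also fell outside these rules. The members and lists were chosen with earlier results of these data known. Promoters were read from the GRCm39 reference, and no 2 libraries were identical.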

Additional observations from a re-analysis of the deposited data

Results flagged for a closer look

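Gstm2 in T-D replicate 3 had 805 normalised counts, far below the other 3 T-D libraries (1294, 1353 and 1382) by Dixon's test. This was 1 of 54 groups of 4 tested, and chance flags about 1 in 20.

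The STZ difference differed between preterm and term mice, by the interaction term in edgeR, for 8 glutathione S-transferases. The preterm minus term difference in log2 fold change was -1.88 for Gstk1, -1.31 for Gstp1, -1.21 for Gstm5, -1.14 for Mgst3, -1.01 for Gstm7, -0.91 for Gstt3, -0.90 for Gstt2 and -0.77 for Gstz1. Any part of the second STZ course of some PT-D mice in these values was not tested.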

How the results depend on the processing

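The count of members called moved with the settings as follows. PT-D vs T-ND gave 4, and 13 with DESeq2, 7 with filterByExpr, 9 with no filter on low counts, 8 with the library-name suffix as a covariate, 1 with the replicate block and 7 with edgeR's revised deviance (added after seeing the data), and 1 to 11 with 1 library left out. PT-D vs T-D gave 0, and 10 with DESeq2, 5 with no filter, 5 with all libraries in 1 fit and 0 with any library left out. T-D vs T-ND gave 2, and 0 on libraries without the suffix (added after seeing the data), and 0 to 2 with 1 left out. PT-D vs PT-ND gave 16, and 10 on libraries without the suffix, 19 with the replicate block, and 8 to 18 with 1 left out. PT-ND vs T-ND gave 0, and 1 with DESeq2 and 0 with any library left out. The interaction gave 8, and 5 with the suffix as a covariate, 4 with the replicate block, 0 on libraries without the suffix, and 0 to 8 with 1 left out. The cause was not tested. Replicate numbers did not pair the libraries (correlations of deviations between -0.28 and 0.31). Over 30 called values and 514 alternative fits, 358 kept the call, 156 lost it and 0 reversed. Where 1 library was left in a group, it was assumed to vary like the others. Precision is limited by 3 or 4 libraries a group.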
